A study of Mus musculus with 12 samples.

Results

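The replication-dependent histone genes are the intervals of the deposited count table that carry a mouse histone cluster name (Hist1 to Hist4 followed by H1, H2A, H2B, H3 or H4). Intervals with a pseudogene suffix, or with fewer than 100 counts summed over the 12 libraries, were left out. Of 48709 gene intervals, 70 matched the name and 68 were kept: 6 of class H1, 19 of H2A, 18 of H2B, 12 of H3 and 13 of H4. Hist3h2bb-ps, with 1286 counts, was left out for its suffix. Hist1h2aa fell under the minimum with 65 counts and at most 12 in a library, whereas the lowest member, Hist1h1t, had 2428. Of the members, 55 lie in cluster 1 on chromosome 13, 10 in cluster 2 on chromosome 3, 2 in cluster 3 on chromosome 11 and 1 (Hist4h4) in cluster 4 on chromosome 6. They were followed in total RNA of cardiogenic regions, the embryonic tissue that forms the heart, dissected from mouse embryos. There were 3 libraries at each of 4 stages, embryonic day 8 (E8), day 8.5 (E8.5), day 9.5 (E9.5) and day 14 (E14). The labels give no strain, treatment, sex or litter for any stage, and say of no library that it came from other embryos than its replicates. The p-values below therefore describe the spread between libraries, part or all of which may be technical.

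Replication-dependent histones package newly made DNA, and their mRNAs accumulate in S phase and are lost when DNA synthesis ends. H2A, H2B, H3 and H4 form the nucleosome core, and H1 binds the linker DNA between nucleosomes. Their short, intronless mRNAs typically end not in a poly(A) tail but in a stem-loop bound by the protein SLBP, so they are poorly recovered by poly(A) selection and are present in total RNA. Histone genes whose mRNA is polyadenylated and made throughout the cell cycle are called replacement variants and are a separate group.

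The stem-loop is shown first because it is what ties these mRNAs to the S-phase pathway. The letters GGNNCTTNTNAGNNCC were searched on the sense strand of GENCODE M21 transcripts (GRCm38). They occurred in transcripts of 46 of the 68 members (67.6%), beside 201 of 55450 genes with a transcript (0.362%). For the other 22 members, the letters are not in the annotated transcript, and nothing follows from that about the mRNA. In the sequences below capitals mark the 16 bases of the match.
Hist1h1e (H1, chr13:23621777-23621802, minus strand): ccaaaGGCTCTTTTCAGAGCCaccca
Hist1h2ag (H2A, chr13:22042478-22042503, minus strand): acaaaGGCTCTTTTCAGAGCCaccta
Hist3h2ba (H2B, chr11:58949344-58949369, plus strand): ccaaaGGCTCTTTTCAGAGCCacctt
Hist1h3e (H3, chr13:23561898-23561923, minus strand): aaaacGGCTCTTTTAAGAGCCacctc
Hist1h4h (H4, chr13:23531453-23531478, plus strand): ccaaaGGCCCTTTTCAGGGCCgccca
Hist2h4 (H4, chr3:96262934-96262959, minus strand): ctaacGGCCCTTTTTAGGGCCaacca
The stem set the H4 genes apart from the other classes. Of the 12 H4 members with a match, 7 had the form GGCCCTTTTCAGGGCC, 2 had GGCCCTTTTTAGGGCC, 2 had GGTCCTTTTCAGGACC and 1 had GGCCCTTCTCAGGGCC. No H1, H2A, H2B or H3 member had any of these 4, and the form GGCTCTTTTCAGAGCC was the most frequent in each of those classes. The loop differed within classes: Hist1h3e and Hist1h3f carried the form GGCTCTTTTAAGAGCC, which 3 of 9 matched H3 members had, and Hist1h3g was the single H3 member with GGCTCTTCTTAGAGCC.

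The count table sets limits on single members, because many are near copies. Over windows of 50 bases of the GENCODE M21 transcripts, the median member shared 49.4% of its sequence with other members. Of the members, 32 shared over 50% and 7 shared none. These transcripts can differ from the intervals that were counted. The H1 genes were the most distinct (median 1.10%) and the H2A genes the least (78.9%). The copies Hist2h2aa1 and Hist2h2aa2 had count ratios of 0.985 to 0.9999 over the 12 libraries, and Hist1h2ao and Hist1h2ap had ratios of 1.003 to 1.03. Reads of such copies cannot be told apart, and a read may be counted at more than 1 copy, so their values and all sums over members are uncertain in size. In 24 members the interval overlaps another gene interval: 18 of the 19 H2A genes overlap a short interval on the opposite strand typed as a miRNA, whose counts were 0.445 to 1.52 times those of the gene. The strand setting of the counting is not given in the sources used here, and reads of such overlapping partners cannot be told apart. Counting copies once was not possible from the table, and the part of shared reads in the results was not tested.

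Library totals ran from 56574386 to 122785175 counts, and all 68 members passed the filter on low counts that left 28846 intervals in the test. Cardiomyocyte markers were high in all libraries (8 genes, summed level 15610 to 25666 CPM, counts scaled per 1e6 of the TMM-adjusted library total). The mix of other cells differed between stages and libraries. The 7 visceral endoderm markers summed to 1642 CPM in E8.5 replicate 3, against 54.6 to 149 CPM in the other E8.5 libraries and 18.8 to 19.0 CPM at E8. The 8 erythroid markers summed to 7902 to 26243 CPM at E14 and 3970 to 10136 CPM at E9.5, and the 7 epicardium and fibroblast markers to 1775 to 1828 CPM at E14 and 205 to 409 CPM at E9.5. In such bulk tissue, fewer cells of a type and less RNA per cell cannot be told apart. None of the marker genes was at 0 in a library apart from Shh, Sox1 and Sox2.

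Histone mRNA was abundant and dropped late. The 68 members together took 1.90% ± 0.107 of all counts in E8 libraries, 1.68% ± 0.165 in E8.5 libraries, 1.94% ± 0.0513 in E9.5 libraries and 1.01% ± 0.108 in E14 libraries (SD, n = 3 each). Their summed level was 17183 to 19217 CPM in E8 libraries, 14077 to 17320 CPM in E8.5 libraries, 18244 to 20148 CPM in E9.5 libraries and 9894 to 12004 CPM in E14 libraries. The E14 libraries all lay below all 9 earlier ones, and E8.5 replicate 2 was the lowest of those 9. With the 4 stages tested together, 67 of the 68 members passed (edgeR's quasi-likelihood F-test, Benjamini-Hochberg adjusted p under 0.05 over all intervals tested), where 72.3% of all intervals tested did. The exception was Hist1h1t, the testis-type linker histone (adjusted p = 0.179).

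**Figure D1:**
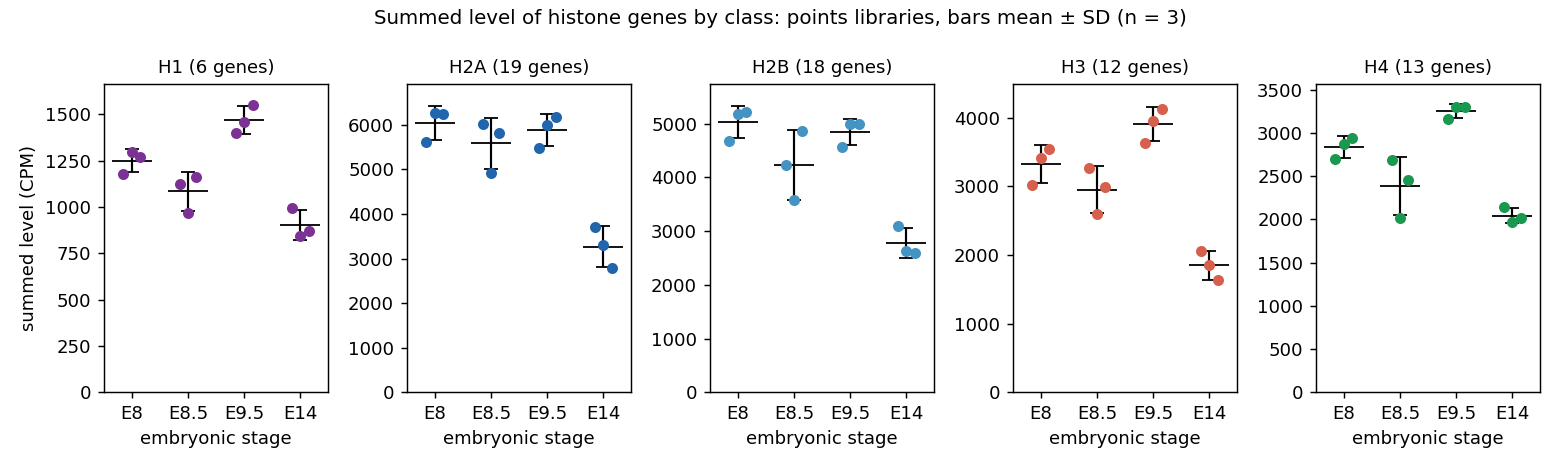
Summed level in CPM of the members of each histone class in each library, by embryonic stage, with the mean and SD of 3 libraries. In all 5 classes the 3 E14 libraries lie below the 3 E9.5 libraries, and H1, H3 and H4 are highest at E9.5.

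Per kilobase of interval, members differed widely in level. The length used is the genomic span of the interval, not that of the mRNA, so a long interval lowers a member's rank. Hist1h2be spans 37383 bp and averaged 8.26 CPM per kb over the 12 libraries, at a mean level of 365 CPM at E8. Hist1h2bq spans 3788 bp and averaged 139 CPM per kb, at a mean level of 611 CPM at E8. Averaged over the 12 libraries, the highest was Hist1h2ag (1311 CPM per kb), followed by Hist1h2bk, an H2B gene (1272 CPM per kb), Hist1h2ai (953 CPM per kb), Hist1h2ah (927 CPM per kb) and the H3 gene Hist1h3h (901 CPM per kb). The highest H4 gene was Hist1h4k (826 CPM per kb) and the highest H1 gene Hist1h1e (416 CPM per kb). The order differed between stages: Hist1h2bk stood above Hist1h2ag at E14 (768 and 700 CPM per kb), and Hist1h3h was the third at E9.5 (1206 CPM per kb). At the other end stood Hist2h2be, an H2B gene described in mouse olfactory neurons (1.31 CPM per kb over 2620 bp). Hist1h1t (2.87 CPM per kb over 729 bp) and Hist3h2ba (6.47 CPM per kb over 614 bp) followed. Cluster 1 supplied 89.4% ± 0.191 of the members' summed level at E14 and 91.6% ± 0.179 at E8, and cluster 2 supplied 9.04% ± 0.129 at E14 and 7.57% ± 0.170 at E8 (SD, n = 3 each).

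E8.5 against E8 showed few calls and mostly negative values. No member rose, where 0.891% of all intervals tested did, and 2 fell, Hist1h2al and Hist2h4, where 0.291% of all intervals did. At an unadjusted p under 0.05 edgeR had 0 rises and 20 falls, but the share of all intervals at that threshold was not counted. DESeq2 had 0 rises and 10 falls after adjustment, where it called 8.25% of all intervals higher and 6.84% lower. The median log2 fold change of the members was -0.20, beside 0.02 for all intervals tested, and 66 of 68 values were negative. Hist2h4, an H4 gene of cluster 2 (chr3:96261682-96263311, minus strand, RefSeq symbol H4c14), had 30.1, 29.5 and 30.0 CPM at E8.5, against 36.6, 40.8 and 40.8 CPM at E8. These libraries did not overlap, and the log2 fold change was -0.40 (SE 0.07, edgeR adjusted p = 0.0366). The number of falls rested on single libraries. It was 27 without E8.5 replicate 3, the library with high visceral endoderm markers, in a fit that called 15.7% of all intervals lower and 14.2% higher. It was 2 without E9.5 replicate 1, 1 without E8 replicate 1 or E8.5 replicate 1, and 0 without any 1 of the other 8 libraries. The call on Hist2h4 was lost in 10 alternative fits (adjusted p 0.0509 to 0.217) and that on Hist1h2al in 14 (adjusted p 0.0514 to 0.217). The part of the visceral endoderm signal in this comparison was not tested.

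E9.5 against E8.5 brought rises, in numbers that differed by class. A total of 34 members rose and 0 fell (edgeR adjusted p under 0.05), where 18.4% of all intervals tested rose and 18.5% fell. At an unadjusted p under 0.05 edgeR had 38 rises and 0 falls, again without a count over all intervals. DESeq2 had as many after adjustment, where it called 19.6% of all intervals higher and 19.4% lower. The median log2 fold change was 0.32 for the members and -0.03 for all intervals tested. Of the H4 genes 12 of 13 rose (median 0.44), of the H1 genes 5 of 6 (median 0.52) and of the H3 genes 8 of 12 (median 0.38). Of the H2A genes 6 of 19 rose (median 0.03) and of the H2B genes 3 of 18 (median 0.14). By cluster, 8 of 10 members of cluster 2 rose and 24 of 55 of cluster 1. The difference between classes or clusters was not tested. Without E9.5 replicate 3 the count of rises was 24, in a fit that called 12.2% of all intervals higher. It was 26 without E8.5 replicate 2, where 13.9% of all intervals were higher, and 26 without E9.5 replicate 2, where 12.6% were. In the same interval all 8 erythroid and all 7 epicardium and fibroblast markers rose, and all 7 foregut endoderm and 6 of 7 visceral endoderm markers fell (medians -2.67 and -5.15). Of the cardiomyocyte markers, 4 of 8 rose and 1 fell. The part of these cells in the histone rises was not tested.

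Hist2h4 changed most among the members that rose. It had 53.8, 59.4 and 56.4 CPM at E9.5, against 30.1, 29.5 and 30.0 CPM at E8.5. The log2 fold change was 0.92 (SE 0.07, edgeR adjusted p = 1.29e-05), so Hist2h4 was the member with a call in each of the 3 intervals between neighbouring stages. Hist1h3f, an H3 gene, had 343, 364 and 377 CPM at E9.5 and 225, 215 and 223 CPM at E8.5, with no overlap (log2 fold change 0.71, SE 0.09, edgeR adjusted p = 0.000224). Hist1h1b, a linker histone, had 161, 169 and 182 CPM at E9.5 and 104, 95.02 and 119 CPM at E8.5. Its log2 fold change was 0.69 (SE 0.10, edgeR adjusted p = 0.000595). By contrast the abundant Hist1h2ag had 625, 728 and 749 CPM at E9.5 and 780, 616 and 757 CPM at E8.5. Its stages overlapped, with a log2 fold change of -0.03 (SE 0.13, edgeR adjusted p = 0.857). Hist1h2bk did not pass either (0.10, SE 0.12, edgeR adjusted p = 0.538).

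**Figure D2:**
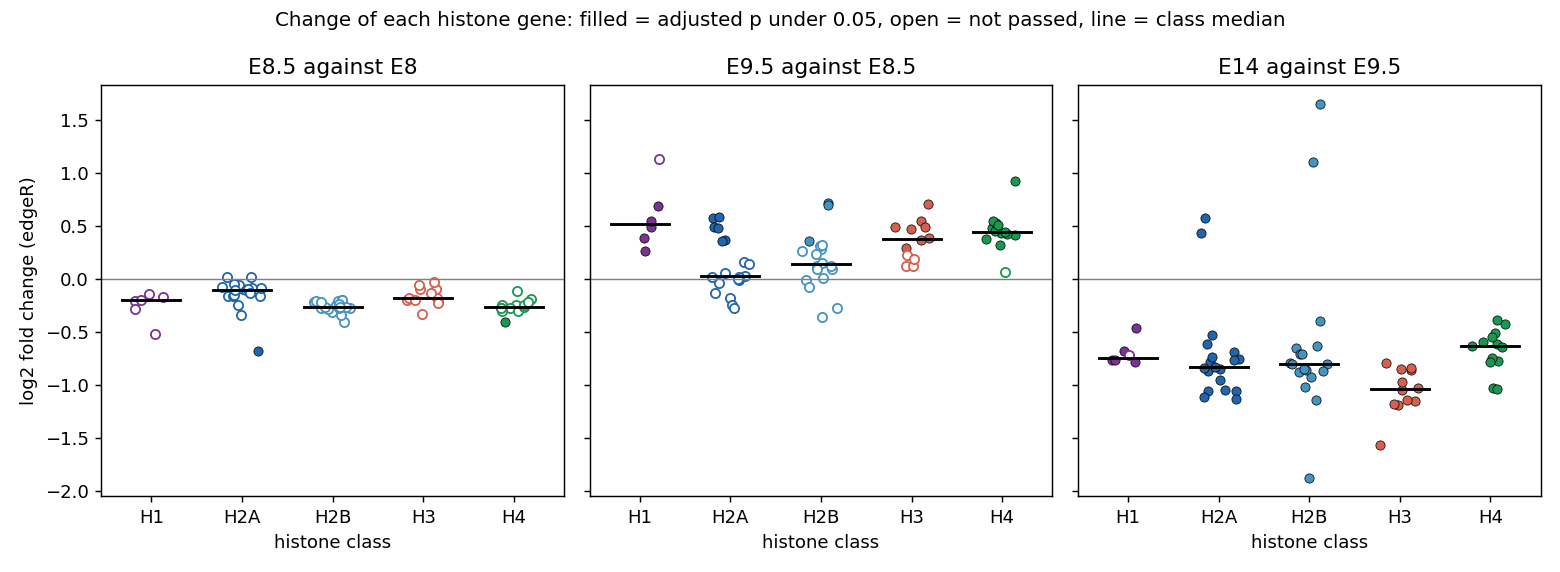
Log2 fold change of each member by histone class for the 3 intervals between neighbouring stages, with filled points for members past an adjusted p of 0.05, open points for the others and a line at the class median. The H1, H3 and H4 medians lie at 0.38 to 0.52 for E9.5 against E8.5, and all class medians lie between -1.03 and -0.63 for E14 against E9.5.

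E14 against E9.5 showed a fall across nearly the whole group. Of the 68 members 63 fell, 4 rose and Hist1h1t did not pass (edgeR adjusted p under 0.05), where 24.6% of all intervals tested fell and 25.4% rose. The median log2 fold change of the members was -0.79, beside 0.01 for all intervals tested. All 13 H4 genes and all 12 H3 genes fell, as did 17 of 19 H2A genes, 16 of 18 H2B genes and 5 of 6 H1 genes. The class medians were -1.03 for H3, -0.83 for H2A, -0.80 for H2B, -0.74 for H1 and -0.63 for H4. The count of 63 falls was the same in each of the 12 fits that left out 1 library. Among the members that overlap no other interval, 41 of 44 fell.

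The largest falls were in an H2B gene and in H3 genes. Hist1h2ba (chr13:23933773-23934156, minus strand, RefSeq symbol H2bc1), which encodes the testis-type H2B, had 17.9, 11.99 and 12.9 CPM at E14, against 41.0, 57.2 and 57.5 CPM at E9.5. The stages did not overlap, and the log2 fold change was -1.87 (SE 0.19, edgeR adjusted p = 7.50e-06). Its annotated transcript shares 38.2% of 50-base windows with other members. Hist1h3e, an H3 gene (chr13:23561534-23562369, minus strand, RefSeq symbol H3c6), had 110, 99.2 and 91.0 CPM at E14, against 262, 306 and 316 CPM at E9.5. It too showed no overlap, with a log2 fold change of -1.56 (SE 0.12, edgeR adjusted p = 8.67e-07). The H3 genes Hist1h3h (-1.18, SE 0.13), Hist1h3d (-1.18, SE 0.14) and Hist1h3i (-1.15, SE 0.13) followed on the log2 scale. Among the most abundant members, Hist1h2ag had 385, 348 and 285 CPM at E14, against 625, 728 and 749 CPM at E9.5 (log2 fold change -1.05, SE 0.13, edgeR adjusted p = 4.09e-05). The smallest falls were in the H4 gene Hist1h4h (-0.39, SE 0.09, edgeR adjusted p = 0.00365), the H2B gene Hist1h2bb (-0.39, SE 0.10), Hist4h4 (-0.42, SE 0.10) and Hist1h1b (-0.46, SE 0.10).

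The erythroid sums varied among the E14 libraries, so they are set beside the histone sums. Of the 8 erythroid markers, 2 rose and 4 fell at E14 against E9.5, where 25.4% of all intervals tested rose and 24.6% fell. Within E14 the erythroid sums were 19498, 7902 and 26243 CPM in replicates 1, 2 and 3, and the histone sums were 12004, 10595 and 9894 CPM. The erythroid sum was made up differently in the stages: Hba-a1, an adult globin, averaged 16661 CPM at E14 and 1420.4 CPM at E9.5, and the embryonic globin Hbb-y 777 CPM at E14 and 2299 CPM at E9.5. Of the epicardium and fibroblast markers, 4 of 7 rose at E14 against E9.5, as did all 5 endothelium and 4 of 6 macrophage and leukocyte markers. Of the 8 cardiomyocyte markers 4 rose and 1 fell, Nkx2-5 (log2 fold change -1.32, SE 0.13). Of the 7 foregut endoderm markers 6 fell and 1 rose, Sox17 (0.48, SE 0.14). The part of those cells in the histone falls was not tested.

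The 4 members that rose at E14 were Hist3h2ba, Hist2h2be, Hist3h2a and Hist1h2al. Hist3h2ba, the H2B gene of cluster 3 (chr11:58948920-58949533, plus strand, RefSeq symbol H2bu2), had 7.48, 6.79 and 6.81 CPM at E14, against 2.07, 1.97 and 2.64 CPM at E9.5. All E14 libraries were higher (log2 fold change 1.66, SE 0.26, edgeR adjusted p = 0.000258). E8.5 spread widely, at 1.88, 2.30 and 4.38 CPM, with the high value in replicate 3. Hist2h2be (chr3:96221119-96223738, plus strand, RefSeq symbol H2bc21) had 7.29, 6.49 and 6.11 CPM at E14, against 2.83, 3.10 and 3.26 CPM at E9.5. The log2 fold change was 1.11 (SE 0.12, edgeR adjusted p = 1.02e-05), after a rise of 0.72 (SE 0.12, edgeR adjusted p = 0.000927) at E9.5 against E8.5. Hist2h2be and Hist3h2ba share no 50-base window with another member and overlap no other interval.

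Hist3h2a, the H2A gene of cluster 3 (chr11:58954685-58956830, plus strand, RefSeq symbol H2aw), had 66.5, 61.9 and 59.2 CPM at E14, against 39.8, 39.7 and 45.8 CPM at E9.5. It rose without overlap (log2 fold change 0.58, SE 0.13, edgeR adjusted p = 0.00308). Its interval lies wholly inside that of Trim17 on the same strand, whose counts were 1.07 to 1.19 times those of Hist3h2a and whose own log2 fold change was 0.54. Reads of these genes cannot be told apart in the table. Hist1h2al had 170, 156 and 143 CPM at E14 and 140, 103 and 105 CPM at E9.5. All E14 libraries were higher, by little in the closest pair, with a log2 fold change of 0.43 (SE 0.14, edgeR adjusted p = 0.0202). Both annotations type it as a pseudogene, it lies apart from the cluster at chr13:51202688-51203065, and 67.6% of its 50-base windows occur in other members. The other member typed as a pseudogene, Hist1h2aj, fell (-0.74, SE 0.12, edgeR adjusted p = 0.000279). The call on Hist1h2al was lost in 5 of the alternative fits (adjusted p 0.0724 to 0.111), among them those without E9.5 replicate 2 or 3 and without E14 replicate 1 or 2. All 4 of these members were at a low or moderate level, and together with the 63 falls they left the summed level 44.1% lower in the E14 mean than in the E9.5 mean.

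**Figure D3:**
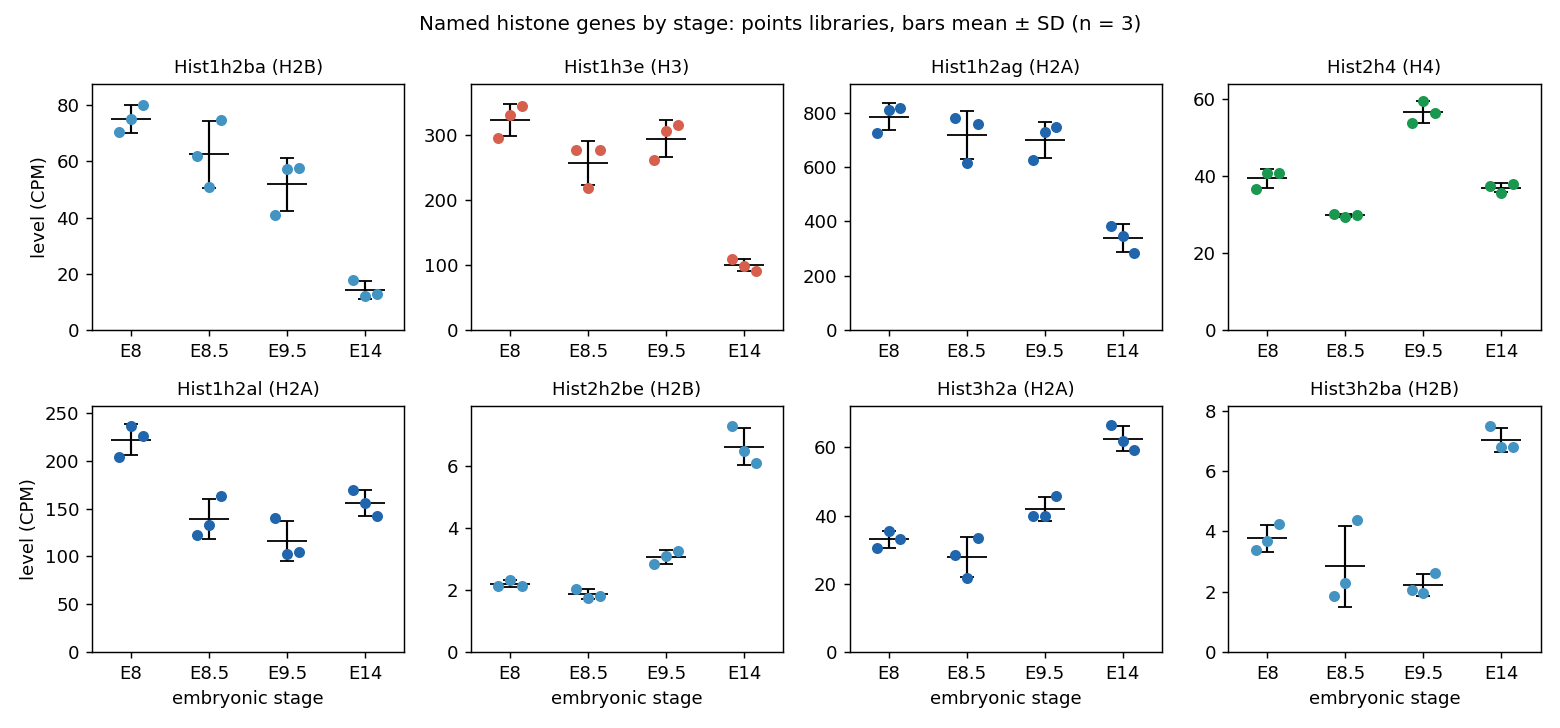
Level in CPM of named members in each library by embryonic stage, with mean and SD of 3 libraries. Hist1h2ba, Hist1h3e and Hist1h2ag are lowest at E14, Hist2h4 is highest at E9.5, Hist1h2al is highest at E8, and Hist2h2be, Hist3h2a and Hist3h2ba are highest at E14.

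Across the whole span, E14 against E8, 59 members fell, 3 rose and 6 did not pass (edgeR adjusted p under 0.05), where 29.2% of all intervals tested fell and 31.5% rose. The median log2 fold change was -0.75 for the members and 0.04 for all intervals tested. All 12 H3 genes fell, although Hist1h3f lost its call with offsets for gene span (adjusted p = 0.0961), a setting that left 51 falls in all. The largest falls were Hist1h2ba (-2.40, SE 0.19, edgeR adjusted p = 6.48e-07), Hist1h3e (-1.70, SE 0.12), Hist1h2bj (-1.21, SE 0.11) and Hist1h2ag (-1.21, SE 0.13). Hist1h2ba had 17.9, 11.99 and 12.9 CPM at E14, against 70.3, 75.0 and 80.0 CPM at E8. The 3 rises were Hist2h2be (1.59, SE 0.12, edgeR adjusted p = 3.42e-07), Hist3h2a (0.92, SE 0.13) and Hist3h2ba (0.89, SE 0.25). Hist2h2be had 7.29, 6.49 and 6.11 CPM at E14, against 2.15, 2.34 and 2.13 CPM at E8. The members that did not pass were Hist1h1b, Hist1h1t, Hist1h4h, Hist2h2ab, Hist2h2bb and Hist2h4, with log2 fold changes of -0.28 to 0.02. Hist1h1b is an example, with 138, 116 and 118 CPM at E14 and 111, 129 and 126 CPM at E8.

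The balance between classes shifted as the total changed. H4 genes made up 15.4% ± 0.331 of the members' summed level in E8 libraries, 14.7% ± 0.704 in E8.5 libraries, 16.8% ± 0.493 in E9.5 libraries and 18.9% ± 1.29 in E14 libraries (SD, n = 3 each). H1 genes made up 6.76% ± 0.136 in E8 libraries, 6.69% ± 0.185 in E8.5 libraries, 7.59% ± 0.155 in E9.5 libraries and 8.35% ± 0.410 in E14 libraries. For both classes, the E14 libraries all lay above the E9.5 libraries, and the E9.5 libraries above those of E8.5. H3 genes went the other way at the last step, with 17.0% ± 0.507 at E14 and 20.2% ± 0.298 at E9.5, again without overlap. H2A genes made up 30.4% ± 0.339 at E9.5 and 34.4% ± 0.733 at E8.5. These shares sum to 100% within a library, so a class can gain share while its level falls: the H4 sum was 2040.3 ± 87.3 CPM at E14 and 3254 ± 77.6 CPM at E9.5, so the mean fell by 37.3%. The H3 sum was 1846 ± 218 CPM at E14 and 3904 ± 251.1 CPM at E9.5, and the mean fell by 52.7%.

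Many H2A and H2B genes lie head to head and share a short stretch between their starts. The members held 12 such pairs, with 235 to 301 bp between the intervals. For E14 against E9.5, the median log2 fold change in the pairs was -0.84 for the H2A gene and -0.82 for the H2B gene, and in 11 of 12 pairs both genes fell. In the remaining pair the genes moved in opposite directions: Hist2h2ac was at -0.61 and Hist2h2be at 1.11, with 238 bp between them. For E8.5 against E8, the H2A value was above the H2B value in all 12 pairs, by 0.08 to 0.28, although no gene of a pair passed the test there. For E9.5 against E8.5, it was below the H2B value in 9 of 12 pairs (median difference -0.14). Pairs share near-identical copies with one another, so they are not independent.

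Promoters are printed for a strongly falling H3 gene, the strongly falling testis-type H2B gene and the H2B gene with the largest rise, so that the elements of members with opposite courses can be compared. They come from RefSeq (GRCm38.p6), 250 bases before to 50 after the annotated start. Capitals mark the CCAAT box, the TATA box in the form TATAAA and the octamer ATTTGCAT, known as the site of Oct factors in H2B promoters, each on either strand.
Hist1h3e (chr13:23562336-23562635, minus strand): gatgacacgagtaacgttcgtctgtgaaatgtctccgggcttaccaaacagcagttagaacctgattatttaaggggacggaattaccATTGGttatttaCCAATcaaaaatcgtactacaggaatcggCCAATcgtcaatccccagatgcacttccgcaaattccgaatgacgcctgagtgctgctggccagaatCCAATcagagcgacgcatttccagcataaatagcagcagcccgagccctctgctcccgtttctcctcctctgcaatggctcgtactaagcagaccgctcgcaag
Hist1h2ba (chr13:23934107-23934406, minus strand): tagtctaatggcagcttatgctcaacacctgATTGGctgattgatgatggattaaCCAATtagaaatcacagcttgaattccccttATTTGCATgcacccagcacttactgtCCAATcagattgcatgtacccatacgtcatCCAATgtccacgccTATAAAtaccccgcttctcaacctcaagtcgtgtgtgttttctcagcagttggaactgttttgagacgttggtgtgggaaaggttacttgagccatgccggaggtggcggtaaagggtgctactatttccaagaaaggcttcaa
Hist3h2ba (chr11:58948661-58948960, plus strand): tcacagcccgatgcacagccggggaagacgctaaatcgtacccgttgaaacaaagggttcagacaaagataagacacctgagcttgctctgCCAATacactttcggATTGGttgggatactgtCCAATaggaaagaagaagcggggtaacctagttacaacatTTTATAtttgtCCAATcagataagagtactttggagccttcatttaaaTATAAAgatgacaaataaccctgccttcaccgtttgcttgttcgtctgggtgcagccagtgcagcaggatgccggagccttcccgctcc
Each of the 3 promoters holds 4 CCAAT matches over both strands. Hist1h2ba and Hist3h2ba also hold TATAAA on the sense strand, 94 and 39 bases before the annotated start, and the octamer is in Hist1h2ba alone. The annotated start of Hist1h2ba is the first base of its ATG, whereas that of Hist3h2ba lies before its ATG. These distances are therefore not measured from like points and cannot be compared between the genes.

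Over the 62 promoter windows found for 61 members, CCAAT was in 53 (85.5%), beside 37.4% of 32851 promoters of the same length. It was in every H1, H2A, H2B and H3 window and in 3 of 12 H4 windows. TATAAA was in 34 of 62 (54.8%), beside 13.6% of all promoters. The octamer was in 13 of 62 (20.97%), beside 1.74% of all, and those 13 belonged to 6 H2A and 7 H2B windows. Each motif was counted on both strands whether or not it overlapped another, and H2A and H2B windows of a head-to-head pair overlap each other. These matches are letters in a window and say nothing of binding.

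Genes that act with histones were followed in 4 lists. Of all intervals tested, 24.6% fell and 25.4% rose at E14 against E9.5, and 18.5% fell and 18.4% rose at E9.5 against E8.5. Of 38 DNA replication genes, 32 fell and 2 rose at E14 against E9.5 (median log2 fold change -0.57), and 18 rose and 2 fell at E9.5 against E8.5 (median 0.25). Ccne1, the cyclin that starts S phase with Cdk2, was at -1.35 (SE 0.11, edgeR adjusted p = 1.73e-06) at E14 against E9.5. Fen1, a nuclease of lagging-strand synthesis, was at -1.23 (SE 0.11, edgeR adjusted p = 3.30e-06) and the sliding clamp Pcna at -0.58 (SE 0.13, edgeR adjusted p = 0.00298). The 2 that rose encode inhibitors of cyclin-dependent kinases, Cdkn1a (1.196, SE 0.19, edgeR adjusted p = 0.000241) and Cdkn1b (0.45, SE 0.10, edgeR adjusted p = 0.00261). The third inhibitor of the list, Cdkn1c, fell (-1.13, SE 0.12, edgeR adjusted p = 1.05e-05) and is counted among the 32. At E9.5 against E8.5, the inhibitors Cdkn1a (0.64, SE 0.19) and Cdkn1b (0.44, SE 0.10) are counted among the 18 that rose. The 2 that fell there were Pola1 (-0.47, SE 0.11) and Prim2 (-0.43, SE 0.13).

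Of 17 genes for transcription and 3′ processing of histone mRNA, 13 fell and 0 rose at E14 against E9.5 (edgeR, median -0.51), with the same numbers at an unadjusted p under 0.05 and by DESeq2. Slbp, which binds the stem-loop, was at -0.54 (SE 0.15, edgeR adjusted p = 0.0113), and Sympk, the scaffold of the cleavage complex, at -0.98 (SE 0.07, edgeR adjusted p = 4.52e-07). Npat, the coactivator of histone transcription, did not pass (-0.03, SE 0.07, edgeR adjusted p = 0.779), nor did Lsm10 and Lsm11 of the U7 particle (0.13 and 0.10). In the interval E9.5 against E8.5, 2 of the 17 rose and 3 fell, with a median of 0.04, where 18.4% of all intervals rose and 18.5% fell. Of 18 chaperone and import genes, 15 fell and 2 rose at E14 against E9.5 (median -0.47). Chaf1a, a subunit of the assembly factor that follows the replication fork, was at -1.16 (SE 0.09, edgeR adjusted p = 7.12e-07) and Nasp, an H3 and H4 chaperone, at -1.09 (SE 0.17, edgeR adjusted p = 0.000258). The 2 that rose, Ubn1 (0.51, SE 0.06) and Atrx (0.46, SE 0.09), belong to pathways that deposit the replacement variant of H3 outside replication. Of their partners, Daxx (-0.62, SE 0.11) and Cabin1 (-0.35, SE 0.09) fell, and Hira was at -0.20 (SE 0.12) and did not pass.

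Replacement variants were more mixed. Whether the mRNA of each listed gene ends in a stem-loop or a poly(A) tail was not examined. Of 11 such genes 6 fell, 2 rose and 3 did not pass at E14 against E9.5, with a median of -0.32. Of all intervals tested, 24.6% fell and 25.4% rose. H1f0, the linker histone of cells that leave the cycle, rose by 0.52 (SE 0.10, edgeR adjusted p = 0.000849) and H2afv, a variant of H2A, by 0.46 (SE 0.10, edgeR adjusted p = 0.00163). H2afx was at -0.98 (SE 0.12, edgeR adjusted p = 3.48e-05) and H2afz at -0.81 (SE 0.12, edgeR adjusted p = 0.000195). The H3 replacement genes H3f3a (0.16, SE 0.14) and H3f3b (-0.17, SE 0.12) did not pass, while all 12 replication-dependent H3 genes fell. Some of the genes named from these lists overlap another gene interval and may share its reads. They are Fen1, Cdkn1c, Pola1, Prim2, Slbp, Chaf1a, Ubn1, Atrx, Hira, H2afx and H3f3a. The difference between the lists and the members was not tested.

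**Figure D4:**
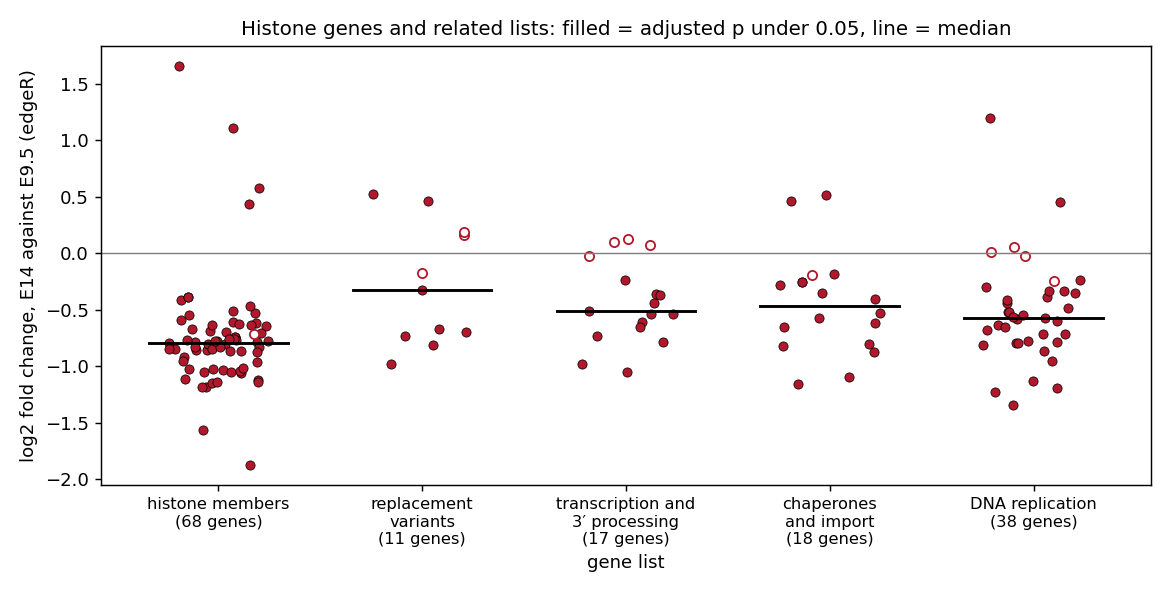
Log2 fold change at E14 against E9.5 of the 68 members and of the genes of 4 related lists, with filled points past an adjusted p of 0.05 and a line at the median. The medians are -0.79 for the members, -0.32 for replacement variants, -0.51 for transcription and 3′ processing, -0.47 for chaperones and import and -0.57 for DNA replication.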

How the data were processed

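Total RNA of dissected mouse cardiogenic regions was sequenced, with 4 stages and 3 libraries per stage. The authors deposited whole-number read counts per gene interval, not normalised. STAR 2.5.0, Cufflinks 2.2.1 and the builds GRCm38, mm10 and hg38 are named without a role, per the submitters' processing notes. How reads were counted (tool, strand, reads with several matches) and against which annotation release is not given in the sources used here. Depth was 56574386 to 122785175 counts per library, which sets the counting error of each value. Libraries of the same stage were not copies of each other: their counts gave a mean chi-square of 8.41 to 201 per interval, where counting noise alone gives 1.

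The deposited counts entered edgeR 4.0.16 (R 4.3.3), with filterByExpr, TMM factors of 0.913 to 1.07 and 1 robust quasi-likelihood model with a mean per stage over all 12 libraries. P-values were adjusted (Benjamini-Hochberg) over the 28846 intervals tested and called under 0.05. Each SE was derived as the absolute log2 fold change divided by the square root of edgeR's quasi-likelihood F. The fit was tested on simulated data. Sums, shares and medians over members are descriptions and were not tested. Intervals were matched to GENCODE M21, the source of the transcript letters, by identical position and strand for 45 members and by gene symbol for the others. Promoters were matched to RefSeq through gene symbols, which matched all 68 members. Tables and figures were made with Python 3.11.15, pandas 2.3.3 and matplotlib 3.10.9.

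The members and lists were chosen with earlier results of these data known. Members were named mainly by a rule: the 4 of each class with the highest level per kb, the 5 largest rises and falls among calls, members called against the main direction, those of special form, and those nearest the count minimum. Others were named outside this rule: Hist1h2bb, Hist4h4, Hist1h2be, Hist1h2bq, Hist2h2ab, Hist2h2ac, Hist2h2aa1 and Hist2h2aa2. Alternatives were RLE and upper-quartile factors, library totals alone, other filters, DESeq2 1.42.0, fits of 2 stages, a replicate block, small structural RNAs left out, offsets for gene span, overlapping members left out, and each library left out in turn.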

Additional observations from a re-analysis of the deposited data

How the results depend on the processing

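No median turned its direction under any alternative run, nor did any call on a member named by the rule. The calls on members named outside the rule were not followed singly. At E14 against E9.5, 63 members fell in each alternative that kept all 68. The call count at E8.5 against E8 was the least stable. Its 2 falls became 1 with upper-quartile factors or gene span offsets, 0 with only the 2 stages compared, 10 with DESeq2 and 0 to 27 when a library was left out. Over all intervals, the split there was 257 higher and 84 lower, 311 and 251 with library totals alone, 2379 and 1972 with DESeq2, 2 and 1 with the replicate number as a block, 4212 and 4653 without E8.5 replicate 3, and 0 and 0 without E8 replicate 3.

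Replicate numbers showed no sign of pairing the libraries. Deviations from the stage means correlated at -0.0836 to 0.134 over 18 pairs of same-numbered libraries, and at -0.173 to 0.19 between differently numbered ones. With 3 libraries per stage such correlations cannot exclude a pairing. A fit with the replicate number as a block gave 0 falls at E8.5 against E8.

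With library totals alone, the members' median was -0.89 at E14 against E9.5 and -0.89 at E14 against E8, where the median of all intervals moved to -0.09 and -0.10. With offsets for gene span, the medians were -0.66 and -0.52, that at E8.5 against E8 was -0.09 (-0.20 without them), and 51 members fell at E14 against E8. Hist1h1a, Hist1h2al, Hist1h3f and Hist1h4d then lost their calls there (adjusted p 0.0961 to 0.327). Leaving out members with overlapping intervals left 44 genes, of which 2 rose and 41 fell at E14 against E9.5, 38 fell at E14 against E8 and 1 fell at E8.5 against E8. The summed levels at E8, E8.5, E9.5 and E14 were then 11353, 9689, 12299 and 6848 CPM, since fewer genes were summed. They were 23752, 20329, 24899 and 13647 CPM when library sizes excluded small structural RNAs.

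Leaving out 1 library gave 24 to 38 rises and 0 to 1 falls at E9.5 against E8.5 (1 without E9.5 replicate 1), 3 to 4 rises and 63 falls at E14 against E9.5, and 56 to 62 falls at E14 against E8. At E9.5 against E8.5, these fits called from 12.2% (without E9.5 replicate 3) to 23.5% (without E8.5 replicate 3) of all intervals higher. The members' medians ranged from -0.29 to -0.11, from 0.21 to 0.44, from -0.92 to -0.77 and from -0.86 to -0.72 in the order E8.5 against E8, E9.5 against E8.5, E14 against E9.5 and E14 against E8. The rise of Hist1h1d at E9.5 against E8.5 lost its call in 15 alternatives (edgeR adjusted p 0.0515 to 0.149). The cause was not tested for any of these shifts other than those from the number of genes summed.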
